A study of Mus musculus with 8 samples.

Results

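Clustered protocadherins are cell adhesion proteins that neurons display on their surface, and their genes lie side by side in an alpha, a beta and a gamma cluster on mouse chromosome 18. Most of these genes are switched on through stochastic promoter choice, so that each neuron uses a small set of them. In that choice the factor CTCF and cohesin loop chosen promoters to distant enhancers, and DNA methylation keeps other promoters silent. Proteins with the same combination bind each other across cells, and this matching is known for self-avoidance of neurites and for the spacing of axon terminals. Alpha and gamma transcripts each join a private first exon to constant exons that their whole cluster shares, whereas a beta gene is a single long exon with no shared constant part.

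Members were the genes of the count table whose Ensembl identifier could be matched to a protein-coding symbol that begins with Pcdha, Pcdhb or Pcdhg. This gave 24 of the 32726 genes in the table. They were all 22 beta genes, 1 alpha identifier that the symbol table names Pcdha11, and 1 gamma identifier that it names Pcdhgc5. The RefSeq annotation of the GRCm38.p6 build holds 57 such protein-coding symbols, of which 14 are alpha, 22 beta and 21 gamma. The other 33 alpha and gamma symbols had no matched identifier and were not analysed here. In the older NCBIM37 gene models the alpha identifier held 10 transcripts with 10 different first exons, and the gamma identifier likewise held 10 transcripts with 10 first exons. Which exons these rows stood for in the annotation used for counting was therefore not settled, and their values are given as those of an alpha row and a gamma row.

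The libraries came from cultured mouse neurons, labelled as from cortex or hippocampus and kept for 5 days in culture, in a study that asked how the kinase NUAK1 acts on cortical axons. There were 2 groups of 4 libraries, from 4 animals each. The KO group carried a constitutive loss of Nuak1, labelled KO with no allele named for these cultures, which is fatal at birth, so embryos were the source of the neurons. The WT group was wild type, mice were kept on a C57Bl/6JRj background, and both groups were grown in serum-free medium, which limits astrocyte growth but leaves a mixed culture. Loss of Nuak1 was present in every cell of the KO embryo, so these cultures do not separate a role in neurons from one in other cells. Lane label A covered KO1, KO4, WT1 and WT3, and lane label B covered the other 4 libraries. A strain label split the groups unevenly, with BJ on KO1, KO2 and KO3, BK on KO4, WT2 and WT4, BO on WT1 and BQ on WT3, and the meaning of these letters was not given in the sources used here.

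Library totals ranged from 31247078 to 67155004 counts. Nuak1 itself stayed at 86 to 102 counts in each KO library while WT libraries held 1612 to 4598, without overlap (log2 fold change −4.90, SE 0.13, with a Benjamini-Hochberg adjusted p of 1.38e-07 from the edgeR quasi-likelihood fit). KO1 and WT1 stood apart from the other 6 libraries on the surrogate variable, an unlabelled axis of variation estimated from all genes, at −0.565 and −0.617 against 0.0453 to 0.377. Summed markers of neurons stood at 5338 to 6493 CPM (counts scaled to a common library size) in KO, against 5309 to 6299 for WT. Those of astrocytes stood at 907 to 1791 and 978 to 1536, and those of microglia at 2.72 to 32.7 and 3.34 to 14.4. No marker with an identifier was at 0 in every library. In these mixed cultures fewer cells of a type and less RNA per cell cannot be told apart.

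The fitted values of the clustered protocadherins lay slightly below those of WT neurons in Nuak1 KO neurons, with overlap between the genotypes for most members. All 22 beta genes, the alpha row and the gamma row had a log2 fold change below 0, a direction that 46.6% of the 16272 tested genes shared. The median over the beta genes was −0.28, that is 17.9% less transcript, whereas the median over all tested genes was 0.014. No single member passed an adjusted p of 0.05 in the edgeR quasi-likelihood test with Benjamini-Hochberg adjustment, which called 0.0492% of all genes. The lowest adjusted p among the members was 0.292, 16 members had an unadjusted p under 0.05, as did 10.5% of all genes, and DESeq2 called 1 member, Pcdhb19, among 165 of the 16272 genes.

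The comparison asked whether Nuak1 loss changed the transcripts of cultured neurons, and the study's own criterion for it was an unadjusted p under 0.05 with a log2 fold change beyond 0.25 in size. At that criterion 9 members were lower in KO, against 3.51% of all tested genes, and 0 members were higher, against 2.16%. All 9 were beta genes, namely Pcdhb2, Pcdhb4, Pcdhb7, Pcdhb12, Pcdhb13, Pcdhb14, Pcdhb16, Pcdhb19 and Pcdhb21. A further 6 beta genes had a p under 0.05 with a smaller fold change, and 4 had a log2 fold change under −0.25 with a higher p. The fold changes of the beta genes reached from −0.60 for Pcdhb1 to −0.10 for Pcdhb8. The count of 9 moved with single libraries. It was 5 without WT2, against 3.18% of all genes, and 15 without WT4, against 4.39%, with beta medians of −0.21 and −0.34. With the strain label fitted as a term, the genotype effect rested on label BK alone, that is KO4 against WT2 and WT4. In that fit 24 members were still below 0, with a beta median of −0.29. The members are neighbours on 1 chromosome measured in the same libraries, so their counts are not independent of each other.

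**Figure D1:**
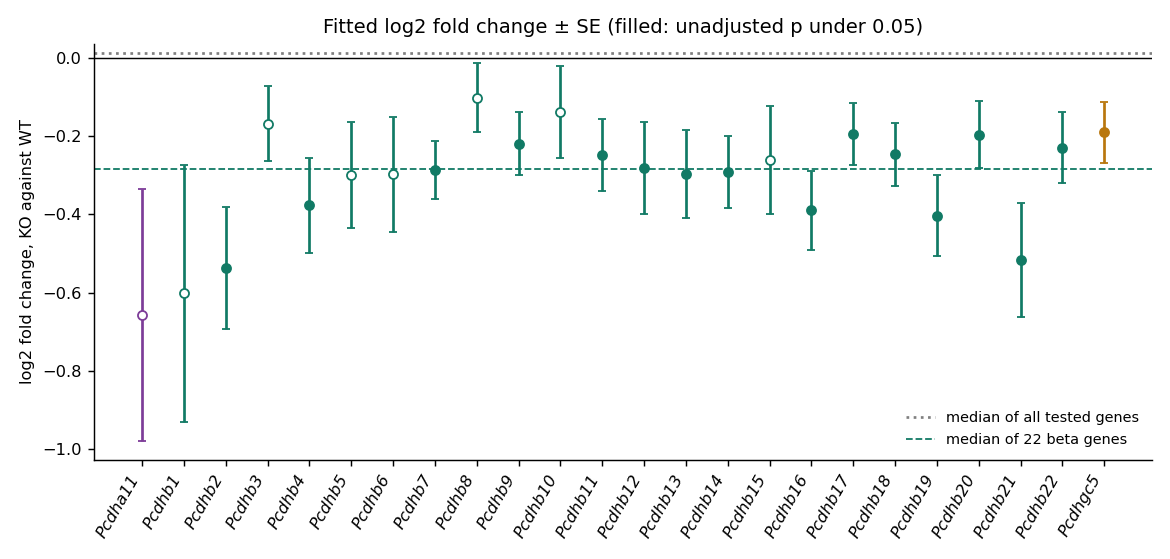
Fitted log2 fold change of KO against WT for each member in chromosomal order (vertical axis, error bars are SE), with filled points for an unadjusted p under 0.05. All 24 points lie below 0, the 22 beta genes between −0.60 and −0.10 around their median of −0.28, while the median of all tested genes is 0.014.

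Summed over its 22 genes, the beta cluster reached 379, 312, 298 and 312 CPM in KO1 to KO4 and 464, 417, 337 and 351 CPM in WT1 to WT4. The KO mean of 324.9 ± 36.3 CPM compared with a WT mean of 392.4 ± 59.1 CPM (SD, n = 4 per genotype), a difference of −17.2%. The groups overlapped because KO1 stood above WT3 and WT4. With KO1 and WT1, which stood apart on the surrogate variable, left out, the means were 307 ± 7.98 CPM in KO and 369 ± 42.7 CPM for WT (SD, 3 libraries each), a difference of −16.7%, and KO1 differed from WT1 by −18.4%. This split was chosen after seeing the data and no overlap is read from it. Within strain label BK, the only one found in both genotypes, KO4 at 312 CPM stood below WT2 at 417 CPM and WT4 at 351 CPM.

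**Figure D2:**
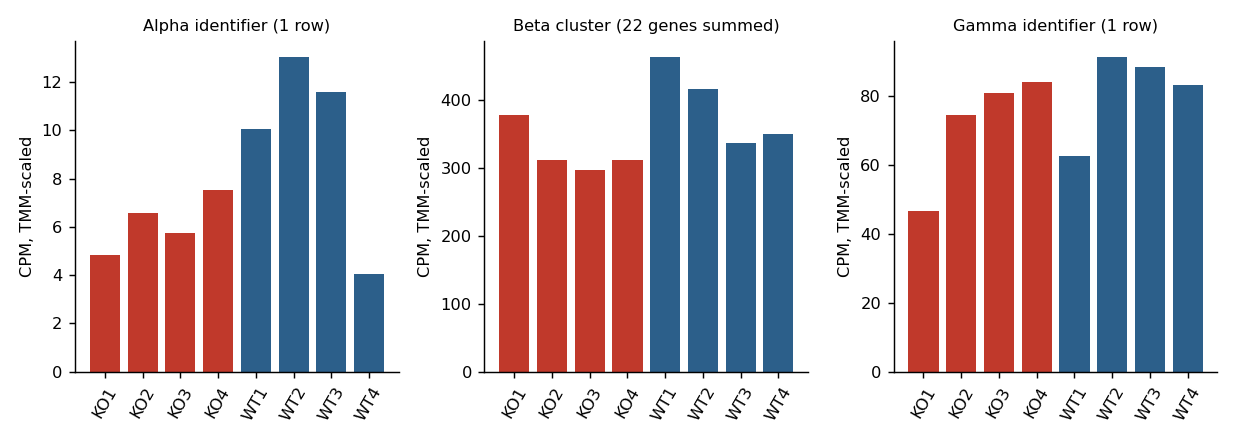
Level in each library, in CPM scaled by TMM, of the alpha row, of the 22 beta genes summed, and of the gamma row (bars from 0, KO in red and WT in blue). The beta sum is 298 to 379 in KO and 337 to 464 in WT, and the tallest beta bar of each genotype is its replicate 1, whereas the gamma row is lowest in those same 2 libraries.

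Pcdhb19, the beta gene with the smallest p, was measured at 41.8, 31.7, 26.2 and 31.04 CPM in KO1 to KO4. In WT1 to WT4 it was measured at 61.4, 45.0, 30.0 and 37.2 CPM. WT3 and WT4 lay within the KO range for Pcdhb19, and WT1 and WT2 lay above it. Its log2 fold change was −0.40 (SE 0.10, unadjusted p 0.00299, edgeR adjusted p 0.292). Without WT3 the value was −0.49 with an adjusted p of 0.0487, so that 1 library decided the edgeR call, in a fit that called 114 of 16425 genes rather than 8.

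Pcdhb21, which lies next to the last gene of the cluster, showed one of the larger differences. Its level was 11.0, 10.2, 8.82 and 11.5 CPM in KO1 to KO4 and 19.8, 16.4, 10.5 and 13.3 CPM in WT1 to WT4. Again WT3 fell among the KO values while the other 3 WT libraries lay above all of them. The log2 fold change of Pcdhb21 was −0.52 (SE 0.15, edgeR adjusted p 0.342), and without WT3 it was −0.63 with an adjusted p of 0.0493.

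Pcdhb2, near the start of the cluster, was at 6.38, 4.91, 4.18 and 5.29 CPM in KO1 to KO4. It was at 9.75, 7.46, 7.40 and 5.26 CPM in WT1 to WT4. Here it was WT4 and not WT3 that lay within the KO range. The log2 fold change of Pcdhb2 was −0.54 (SE 0.16, edgeR adjusted p 0.347).

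Pcdhb16 was at 22.8, 16.5, 16.2 and 19.1 CPM in KO1 to KO4 and at 28.9, 26.3, 20.6 and 21.3 CPM in WT1 to WT4. KO1 alone stood among the WT values, above WT3 and WT4. The log2 fold change of Pcdhb16 was −0.39 (SE 0.10, edgeR adjusted p 0.296). Pcdhb7 was at 23.5, 21.0, 19.3 and 19.6 CPM in KO1 to KO4 while WT1 to WT4 gave 30.4, 26.3, 20.8 and 24.1 CPM, a fitted difference of −0.29 in log2 (SE 0.075, edgeR adjusted p 0.296). For Pcdhb7 the overlap came from WT3, which lay below KO1 and KO2.

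The groups did not overlap for 2 members, Pcdhb4 and Pcdhb9, against 1.12% of all tested genes lower in KO without overlap. Pcdhb4 ranged over 5.39 to 6.53 CPM for KO, below its WT range of 6.71 to 9.16 CPM. Pcdhb9 was at 19.98 to 21.9 CPM in KO libraries, and WT libraries started at 22.1 and ended at 26.7 CPM. These 2 genes were named after their values were seen. In both cases the gap between the highest KO and the lowest WT library was small.

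Pcdhb8 differed least, at 11.9, 10.6, 9.74 and 10.8 CPM in KO1 to KO4 and 11.4, 12.2, 11.0 and 11.4 CPM in WT1 to WT4. KO1 was above 3 of the 4 WT libraries. Its log2 fold change was −0.10 (SE 0.089, edgeR adjusted p 0.712), and it passed neither criterion. Pcdhb1, the first gene of the cluster, whose promoter is known to lack the conserved element of most other clustered protocadherin promoters, had the lowest fold change and the widest error. Only 9, 16, 17 and 15 counts came from KO1 to KO4, and WT1 to WT4 gave 30, 31, 16 and 18 (log2 fold change −0.60, SE 0.33, edgeR adjusted p 0.548). The difference in Pcdhb1 did not pass either criterion and WT1 alone stood well above the KO libraries, at 0.985 CPM.

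**Figure D3:**
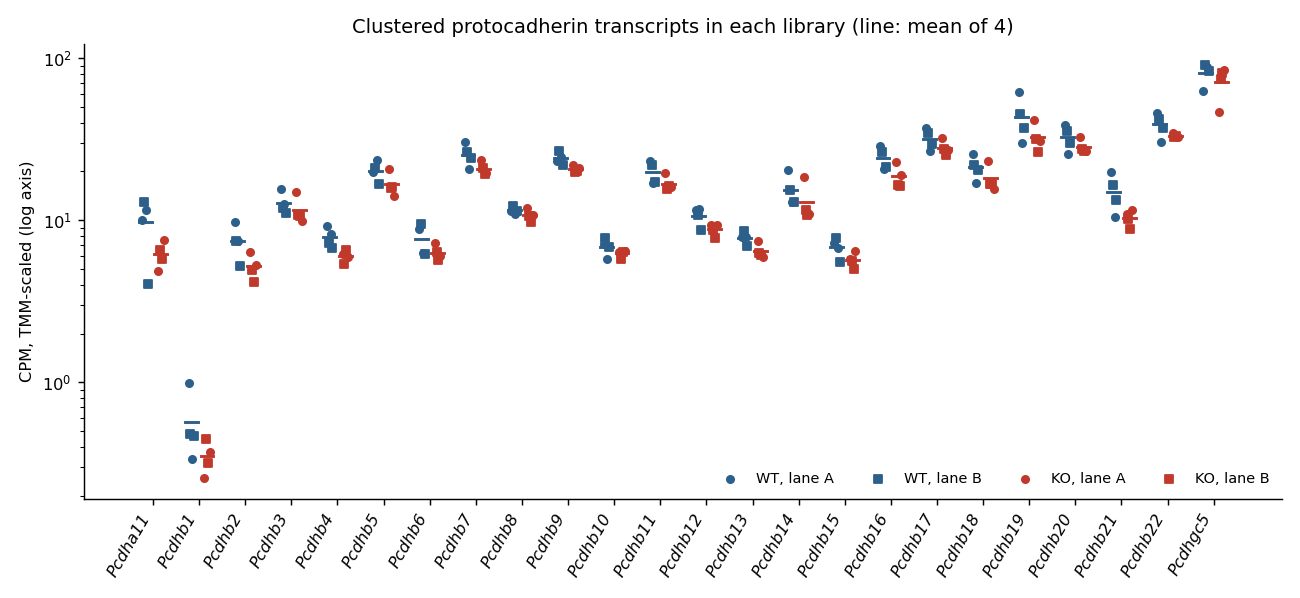
CPM of each member in each library on a log axis (WT blue on the left, KO red on the right, circles for lane label A and squares for B, lines for the mean of 4 libraries). The KO mean lies below the WT mean for every member, the libraries overlap for all members except Pcdhb4 and Pcdhb9, and Pcdhb1 sits far below the rest at under 1 CPM.

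The beta genes shared their high and low libraries. WT1 held the highest of the 8 values for 14 of the 22 beta genes, WT2 for 6 and WT3 for 2. Within the KO group KO1 was highest for 16 genes, and KO3 was lowest for 12. Within the WT group the lowest value came from WT3 for 13 genes and from WT4 for 9. The axis on which KO1 and WT1 stood apart was fitted as a covariate, and without it 4 members rather than 9 met the study's criterion, against 1.59% of all genes, with 24 members still below 0 and a beta median of −0.27.

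The share of each beta gene in the beta total overlapped between the genotypes. Pcdhb19 supplied 9.996% of the beta total in KO and 10.9% in WT, and Pcdhb22, the last gene of the cluster, supplied 10.3% and 9.92%. For 0 of the 22 genes did the shares of the 4 KO libraries lie apart from those of the 4 WT libraries. This measure has no counterpart over all genes, and with 4 libraries per genotype the 0 does not show an unchanged make-up.

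Levels per length differed widely between beta genes. Expressed as CPM per kilobase of the RefSeq gene span, WT libraries held most of Pcdhb22 at 12.7 ± 2.22 (SD, n = 4), followed by Pcdhb17 at 9.76 ± 1.42, Pcdhb20 at 9.55 ± 1.71 and Pcdhb19 at 9.21 ± 2.86. These 4 genes all lie in the distal part of the cluster, from Pcdhb17 to its end. That part also holds Pcdhb18 at 4.21 ± 0.717 and Pcdhb21 at 5.53 ± 1.48, which were lower. After Pcdhb19 in this order came Pcdhb9 at 7.90 ± 0.663 and Pcdhb7 at 7.24 ± 1.15. The order below them ran down to Pcdhb13 at 2.12 ± 0.181 and Pcdhb4 at 2.11 ± 0.29, and Pcdhb1 was last at 0.231 ± 0.116.

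The WT ranges of neighbours in this order overlapped in 20 of 21 neighbouring pairs, the exception being Pcdhb4 and Pcdhb1. Both genes of a pair were measured in the same 4 WT libraries, so overlapping ranges do not show that their order varied within libraries. For the top pair, Pcdhb22, the shorter gene, was above Pcdhb17 in CPM in each of the 4 WT libraries. The order within libraries is not reported for the other pairs. The rank of Pcdhb21 moved from 8 to 15 and that of Pcdhb19 from 4 to 6 when the NCBIM37 gene models gave the lengths. Pcdhb22, at 34.6, 32.7, 33.0 and 32.5 CPM in KO1 to KO4 and 46.2, 42.4, 30.6 and 36.8 CPM in WT1 to WT4, was also among the members with the most counts. Its 4 KO libraries lay close together and WT3 fell below all of them (log2 fold change −0.23, SE 0.091, edgeR adjusted p 0.435).

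**Figure D4:**
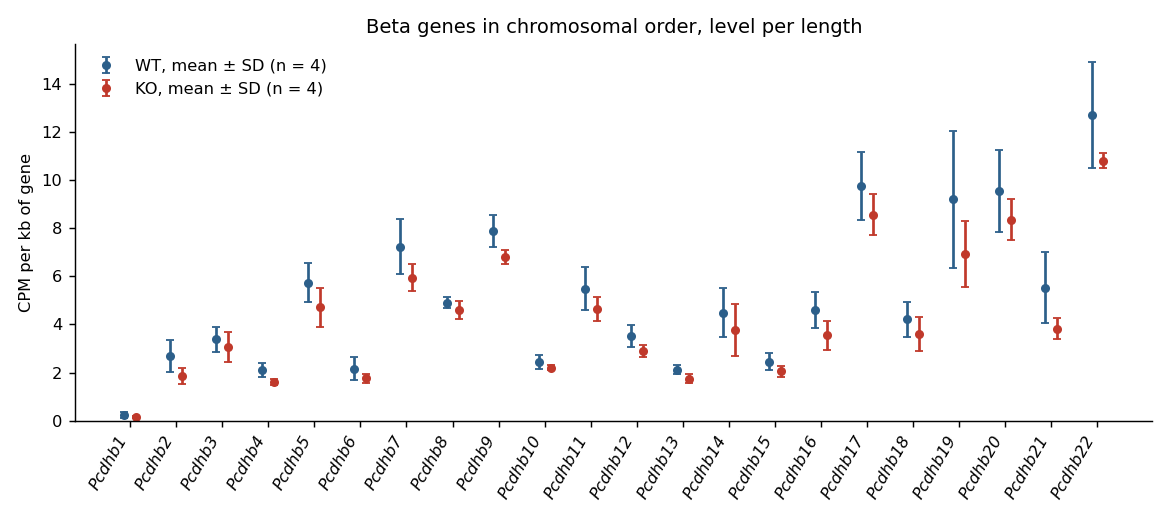
Level per length of each beta gene in chromosomal order (CPM per kilobase of gene, mean ± SD of 4 libraries, WT blue and KO red). The highest WT level is that of Pcdhb22 at 12.7, Pcdhb17, Pcdhb19 and Pcdhb20 follow at 9.21 to 9.76, and Pcdhb1 is lowest at 0.231.

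The 22 beta genes occupy 256.4 kb of chromosome 18 in the GRCm38 build, from 37264998 to 37521419, with 1174 to 43244 bases between neighbours. All lie inside the spans of 3 longer RefSeq genes, Gm37013, Gm38666 and Gm38667, and how the counting treated reads in this overlap was not tested. In the NCBIM37 models 20 of the 22 had a single exon. Reads that aligned to several places were not counted, and the beta genes resemble each other, so the share of each gene's stretches of 50 bases that recur elsewhere in the NCBIM37 genome was computed. It ranged from 0% to 12% with a median of 3.91%, and for stretches of 100 bases it did not exceed 2.54%. Pcdhb1 had none, while Pcdhb12 had the highest share at 12% and a log2 fold change of −0.28.

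The alpha row had low counts and varied widely between WT libraries. It was at 4.83, 6.59, 5.74 and 7.54 CPM in KO1 to KO4 and at 10.1, 13.04, 11.6 and 4.07 CPM in WT1 to WT4. WT4 was the lowest of all 8 libraries while the other 3 WT libraries were the 3 highest. The log2 fold change was −0.66 (SE 0.32, unadjusted p 0.0751, edgeR adjusted p 0.515), so in this fit the alpha row met neither criterion. It met the study's criterion in DESeq2, at −0.66 (unadjusted p 0.0193, adjusted p 0.302), and in edgeR without WT4, at −0.91 (unadjusted p 7.01e-05, adjusted p 0.0599). The value was −0.43 without WT1. Fitting the strain label, which compares KO4 with WT2 and WT4 alone, gave −0.19. Counting in union mode leaves out a read that lies in exons of several genes, which can remove reads in constant exons from this row, and the size of that loss was not tested.

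The gamma row, which the symbol table names after the C-type isoform Pcdhgc5, was at 46.5, 74.4, 80.7 and 84.1 CPM in KO1 to KO4. It was at 62.7, 91.2, 88.4 and 83.1 CPM in WT1 to WT4. KO1 and WT1 were the lowest library of their genotype, the opposite of the beta sum, in which they were the highest. The log2 fold change was −0.19 (SE 0.078, unadjusted p 0.0349, edgeR adjusted p 0.451), below the size the study's criterion asks for. The value was −0.11 without KO1 and −0.096 without WT1. Fitting the strain label, which compares KO4 with WT2 and WT4 alone, gave −0.051. The same rule on reads in shared exons applied to this row. The fold changes of the 3 clusters, −0.66 for the alpha row, −0.28 for the beta median and −0.19 for the gamma row, were set side by side without a test of their difference.

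Within lane label A, with 2 libraries of each genotype, the beta median was −0.20 and within lane label B it was −0.32. Members were lower in KO for 23 of 24 in lane A and for 24 in lane B, and 21 beta genes were lower in both. At the study's criterion 0 members were lower in lane A alone, against 0.462% of all genes, and 13 in lane B alone, against 4.53%. The member not lower in both was Pcdhb8, at 0.015 in lane A and −0.22 in lane B. A test of the lane by genotype interaction called 0 members in edgeR and 0% of all genes. At an unadjusted p under 0.05 it held 0 members against 1.57% of all genes, and DESeq2 called 0 members.

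**Figure D5:**
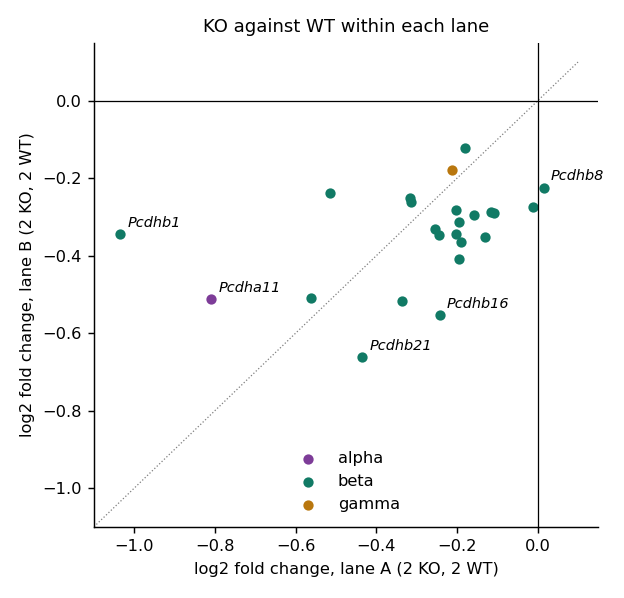
Log2 fold change of KO against WT computed within lane label A (horizontal axis) and within lane label B (vertical axis), 2 libraries per genotype in each, 1 point per member. All points lie below 0 in lane B and all but Pcdhb8, at 0.015, lie below 0 in lane A, and the beta medians are −0.20 and −0.32.

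Genes known to act on protocadherin promoters or to work with the proteins showed no common direction. Of 43 listed genes, 41 were tested, 0 met the study's criterion or an adjusted p of 0.05 in edgeR, 21 had a log2 fold change below 0, and their median was −0.0012. At an unadjusted p under 0.05 stood 3 of them, a share below the 10.5% of all tested genes. The lowest p was that of Nipbl, which loads cohesin onto DNA, at −0.18 (unadjusted p 0.0166, edgeR). Tet1, which oxidises methylated cytosine, followed at −0.17 (unadjusted p 0.0184, edgeR).

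Among 10 tested genes for CTCF, cohesin and its loaders 1 was under that p, close to the 10.5% of all genes, with Ctcf itself at 96.1 ± 7.64 CPM for KO against 93.8 ± 6.36 CPM for WT (SD, 4 libraries each). Among 10 for DNA methylation and silencing 1 was, again close to that share, with the maintenance methyltransferase Dnmt1 at a log2 fold change of 0.016. Among 6 genes for shedding of the proteins 1 was under that p, beside the 10.5% of all genes, and their median log2 fold change was −0.12. The sheddase Adam10 was at −0.19 (SE 0.11, edgeR adjusted p 0.578). For the 8 cytoplasmic partners, among them the kinase Ptk2 at 0.079, and for the 7 genes of the WAVE complex, which drives actin branching, the count was 0, with adjusted p of 0.497 or higher in edgeR. The count of 0 listed genes at the study's criterion became 2 without WT3 and 2 without WT4. In those fits 4.78% and 4.39% of all genes were lower at that criterion, with those higher not included.

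The cell type markers gave these values beside the protocadherins. At the study's criterion 3.51% of all tested genes were lower and 2.16% higher. Of the neuron markers 1 of 10 tested was lower, Slc17a7, the vesicular glutamate transporter, at a log2 fold change of −0.32. Of 7 progenitor markers the cell cycle gene Top2a was higher at 0.48. Of 8 astrocyte, 6 microglia, 9 interneuron and 6 endothelial cell and fibroblast markers tested, 0 met the criterion in edgeR, though the microglia markers had a median of 1.21 at low levels. None of the 53 tested markers passed an adjusted p of 0.05. The part of cell composition in the protocadherin values was not tested.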

How the data were processed

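RNA was measured in 8 libraries of cultured neurons (4 KO, 4 WT). Per the labels and the study's methods the authors enriched poly-A RNA with a stranded kit, trimmed reads with Cutadapt 1.10, discarded reads mapping to rRNA, aligned the rest to mm10 with STAR 2.5.3a and counted uniquely aligned reads with HTSeq 0.6.1p1 in union mode on Ensembl annotation. The deposited values are raw counts per gene. Whether counting used the strand, and why the sources differ on read length and layout, is not given in the sources used here.

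The deposited counts were fitted across all genes with the edgeR 4.0.16 quasi-likelihood test (R 4.3.3), after filterByExpr, with TMM scaling, genotype and 1 surrogate variable from sva 3.50.0. P-values were adjusted by Benjamini-Hochberg over the 16272 tested genes, and CPM are TMM-scaled. DESeq2 1.42.0 served as an alternative. The code was tested on simulated data. Identifiers were matched to symbols through a GENCODE table (23260 of 32726 matched) and biotypes came from RefSeq. Replicate numbers were not used as pairs. They come from separate animals, and the 4 same-numbered pairs correlated at 0.800, 0.0122, 0.249 and 0.00225, so they did not all deviate together. No 2 libraries agreed within sampling noise.

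Named genes were Nuak1, in each cluster the 5 members with the smallest p, the 2 with the highest mean CPM and the one with the highest fold change, C-type isoforms, and regulators with a p under 0.05. Some genes of the lists are not reported here. The members, gene lists and tests were chosen with earlier results of these data known. The alternatives left out each library, or changed the scaling, filter, tool, covariates or lane. The beta sum with KO1 and WT1 set apart and the count of negative members under the alternatives were added after seeing the data.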

Additional observations from a re-analysis of the deposited data

Results flagged for a closer look

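In 5 of 52 groups of 4 libraries examined (the 24 members, the beta sum and Nuak1, each in both genotypes), a single library stood apart from the other 3 of its genotype, its gap to the nearest of them taking most of the group's range, past the 95% critical value of Dixon's ratio. Chance alone gives about 1 in 20 such groups, which is 2.6 here. In 4 of the 5 the library was KO1. Pcdhb3 was at 15.01 CPM in KO1 and 9.90 to 10.7 CPM in the other KO libraries. Pcdhb14 was at 18.5 CPM in KO1 and 10.8 to 11.5 CPM in the others. Pcdhb18 was at 23.4 CPM in KO1 and 15.7 to 16.7 CPM in the others. Pcdhb20 was at 32.8 CPM in KO1 and 26.7 to 27.5 CPM in the others. The fifth was Pcdhb10 in KO2, at 5.78 CPM against 6.40 to 6.45 CPM in the other KO libraries.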

How the results depend on the processing

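The 9 members at the study's criterion (3.51% of all genes) became 4 without the surrogate variable (1.59%) and 0 in lane A alone (0.462%). The count was 5 to 15 when 1 library was left out (5 without WT2, 3.18%, and 15 without WT4, 4.39%). It was 13 in lane B alone (4.53%), 13 with DESeq2 (3.60%), 12 with 2 surrogate variables (4.16%), 12 with DESeq2 size factors (3.72%) and 6 without both replicate-1 libraries (2.03%). No member was higher at that criterion under any alternative run. The count past an adjusted p of 0.05 was 1 with DESeq2 (Pcdhb19, adjusted p 0.0472), which called 165 genes in all against 8, and 0 to 2 when 1 library was left out (2 without WT3, where 114 genes were called), and 0 under the other alternatives. Regulator and partner genes at the study's criterion, 0 in the report, were 2 with 2 surrogate variables, 1 with lane as a term and 3 in lane B alone. In these 3 fits 4.16%, 3.56% and 4.53% of all genes were lower at that criterion. With 1 library left out the count of regulator and partner genes was 0 to 2. Members lower without overlap, 2 in the report against 1.12% of all genes, were 1 with DESeq2 size factors, where the share of all genes was not computed. Pcdhb8 turned to 0.015 in lane A, where 2 libraries against 2 called 0 genes in all and even Nuak1 had an adjusted p of 0.849 (edgeR). The beta median stayed between −0.34 and −0.20 in all 21 alternatives, the alpha row between −0.91 and −0.19, and the gamma row between −0.24 and −0.051. The alpha value of −0.19 and the gamma value of −0.051 came from the strain label fit, that is from KO4 against WT2 and WT4. With the replicate number as a block, 8 members were lower with the surrogate variable (3.37% of all genes) and 9 without it (2.99%). The beta medians were −0.24 and −0.27. In each of these fits 0 members passed the adjusted p and 3 genes were called in all rather than 8. In each, 1 regulator or partner gene met the study's criterion. The causes of these changes were not tested. Pcdhb1 had the fewest counts, 9 in its lowest library.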
